A study of Mus musculus with 14 samples.

Results

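Dendritic cells sorted from melanomas of mice labelled Irf1_dXCR1 were compared with the same sorted cells from mice labelled Irf1_FF. The comparison used 235 of the 388 cells on the 9 plates of these genotypes, out of 555 cells on 14 plates in the whole study. A cell was used when it had at least 1 unique molecular identifier (UMI, a tag that counts each captured transcript once) in at least 4 of 9 genes of type 1 conventional dendritic cells (cDC1), or in at least 5 of 10 genes of mature dendritic cells. The cDC1 genes were Xcr1, Clec9a, Cadm1, Naaa, Tlr3, Irf8, Itgae, Ppt1 and Wdfy4. The mature genes were Ccr7, Fscn1, Ccl22, Relb, Cd40, Socs2, Cacnb3, Il4i1, Samsn1 and Anxa3. These 19 genes chose the cells, so their levels are described below without a test.

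cDC1 take up material from dying tumour cells and present it on MHC class I to CD8+ T cells, and after maturation they express Ccr7 and can move to lymph nodes. IRF1 is a transcription factor induced by interferons, above all by interferon-gamma. It is known to bind repeated GAAA elements in the promoters of genes for antigen processing, guanylate-binding proteins and cytokines, and a related set of antiviral genes answers to type I interferon.

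All tumours were YUMM1.7, a mouse melanoma cell line, of which 1000000 cells were injected under the skin of the right flank of female mice, and all Irf1 mice were 6 weeks old. Irf1_FF (called control here) had 4 plates with 98 selected cells, namely 23, 20, 21 and 34 on plates 1 to 4. Irf1_dXCR1 (called Irf1-deleted here) had 5 plates with 137 selected cells, namely 29, 12, 18, 42 and 36 on plates 1 to 5, and values per plate are always given in this order. Each plate held cells of 1 tumour of 1 mouse from the experiment labelled M3, and plate numbers follow the order of deposit. The labels do not spell out the alleles behind dXCR1 or say which recombinase was used, so an effect of the recombinase allele and one of the deletion cannot be told apart. The other 5 plates, of the Ikbkb_FF and Ikbkb_dXCR1 genotypes, entered the fits only to share the estimate of the spread between plates. Their mice were of mixed age: 8 weeks for Ikbkb_FF plate 1 and Ikbkb_dXCR1 plates 1 and 2, and 6 weeks for Ikbkb_dXCR1 plates 3 and 4.

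Plate totals over the selected cells were 3673914 to 4796321 UMIs in control and 2426264 to 7144026 in Irf1-deleted plates. The plate median of genes per cell was 1341 to 2194 in control and 1187 to 2199.5 in Irf1-deleted plates (exact two-sided permutation test over 9 plates, p = 0.714), and mitochondrial UMIs made up 1.15% and 1.13% on average. Transcripts that dendritic cells express were present: Cd74 was found in 100% of the selected cells, Flt3 in 59.6% and 60.2% (means of control and Irf1-deleted plates), and Batf3 in 58.9% and 50.1%. At the edge of the rule, 17 cells stood exactly at the cDC1 minimum and 20 cells were 1 gene short of it and not used, while 11 stood at the mature minimum and 7 were 1 gene short. Selected cells had a median of 159245 UMIs and the others 91720. Control plate 1 had only 2 mature cells and Irf1-deleted plate 2 only 12 selected cells, so results are also given without these plates where that matters.

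The mature arm of the rule took 34 control and 46 Irf1-deleted cells, and the remaining 64 and 91 cells met the cDC1 arm alone. Mature cells made up 8.70%, 55.0%, 42.9% and 35.3% of the selected cells on the control plates. On the Irf1-deleted plates the share was 41.4%, 33.3%, 38.9%, 26.2% and 33.3%. The groups overlapped and their means were close, at 35.5% ± 19.6 (SD, n = 4) and 34.6% ± 5.88 (n = 5; exact permutation p = 0.921). Shares of sorted cells can be set by the sorting gate.

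Irf1 itself (chromosome 11, 53770014 to 53778374, GRCm38) was lower on average in Irf1-deleted plates without passing the test. Its level over all selected cells was 268, 480.4, 402 and 452 counts per 1000000 UMIs (CPM, after TMM scaling) in control plates and 424, 67.3, 407, 115 and 245 in Irf1-deleted plates. Irf1-deleted plates 1 and 3 lay among the controls and plates 2 and 4 far below them. In such sums, fewer cells with a transcript and less of it per cell cannot be told apart. The means were 401 ± 94.2 (n = 4) and 252 ± 163 CPM (n = 5), a log2 difference of -0.67 ± 0.47 (SE; edgeR quasi-likelihood test, adjusted p = 0.715). The share of cells with an Irf1 UMI was 34.8%, 60.0%, 52.4% and 52.9% in control and 48.3%, 25.0%, 38.9%, 21.4% and 36.1% in Irf1-deleted plates (exact permutation p = 0.0794). The libraries read only the start of each transcript, where a shortened message would still be counted, so this level does not check the deletion.

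Among mature cells Irf1 stood at 869, 759 and 1017 CPM on control plates 2, 3 and 4, and at 751, 751, 351 and 467 on Irf1-deleted plates 1, 3, 4 and 5, the plates with at least 5 such cells. These groups did not overlap, though by a narrow margin (log2 difference -0.60 ± 0.38, edgeR adjusted p = 0.652). An Irf1 UMI was found in 90.9%, 88.9% and 75.0% of the mature control cells and in 66.7%, 57.1%, 27.3% and 58.3% of the mature Irf1-deleted cells (exact permutation p = 0.0571, the smallest that 3 against 4 plates can give). In cDC1-arm cells Irf1 overlapped between groups, at 235 ± 59.5 CPM (n = 4) and 117 ± 89.6 CPM (n = 5; edgeR adjusted p = 0.98).

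**Figure D1:**
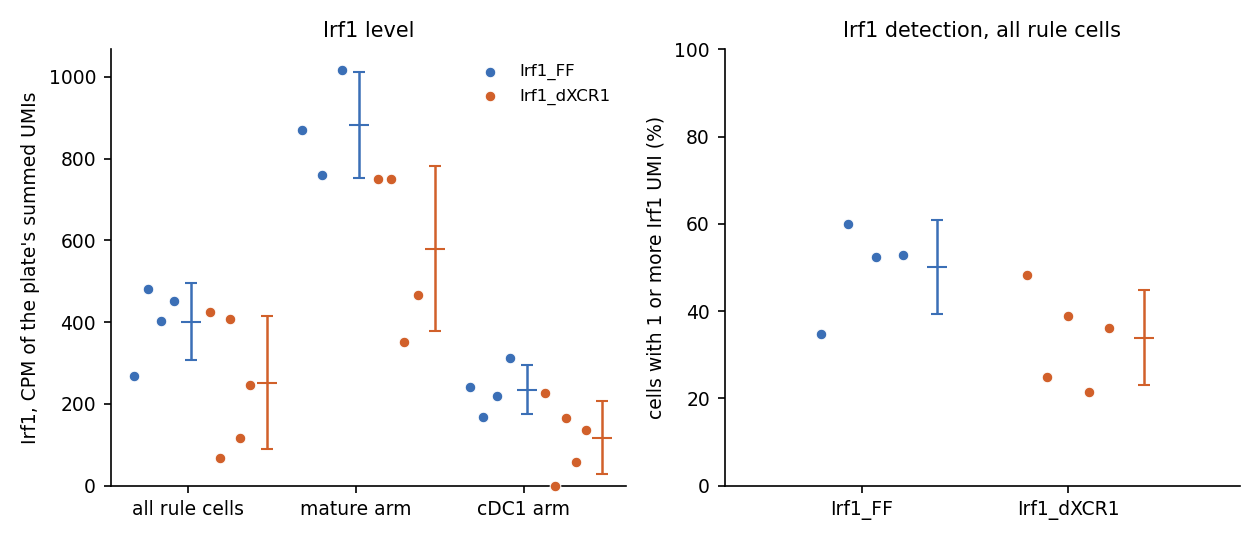
Irf1 level in CPM per plate over all selected cells, mature cells and cDC1-arm cells, and the percent of cells with an Irf1 UMI. Each point is a plate, with the mean ± SD of each genotype. Mature-cell levels were 759 to 1017 CPM in control and 351 to 751 CPM in Irf1-deleted plates, while the groups overlapped over all selected cells.

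Over all selected cells the edgeR test called 0 of 13849 genes (0%) at an adjusted p under 0.05. The smallest adjusted p was 0.481, 1150 genes (8.3%) had an unadjusted p under 0.05, and DESeq2 on the same sums called 194. The genes below are therefore those with the smallest p among genes whose plates did not overlap between genotypes, and none of them passed. Among all genes tested, 104 (0.751%) were higher and 108 (0.78%) lower in every Irf1-deleted plate than in every control plate.

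The lower genes included an antigen transporter, surface and secreted immune proteins, and genes of lipid and protein turnover. Tap1 (chromosome 17, 34187556 to 34197225), a subunit of the pump that carries peptides to MHC class I, had 898, 910.4, 727 and 801 CPM in control plates and 637, 409.9, 447, 639.6 and 528 in Irf1-deleted plates. Every Irf1-deleted plate lay below every control plate, with means of 834 ± 86.6 and 532 ± 106 CPM (log2 difference -0.65 ± 0.19, edgeR adjusted p = 0.481). Fgl2, a fibrinogen-like protein with immune-regulatory roles, had 1114, 725, 996 and 1230.1 CPM in control plates against 425, 547, 516, 537 and 509. Its Irf1-deleted plates were close together, and the means were 1016 ± 216 and 507 ± 48.4 CPM (log2 difference -1.005 ± 0.22, edgeR adjusted p = 0.481).

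Slamf7, a SLAM-family receptor, stood at 633, 839.7, 944 and 889.7 CPM in control and 251, 261, 579, 408 and 579 in Irf1-deleted plates. Sharpin, a component of the linear ubiquitin ligase that feeds NF-κB signalling, stood at 263, 229, 216 and 125 CPM against 59.7, 80.7, 71.1, 29.6 and 103. Pla2g16, a phospholipase also called Plaat3 (chromosome 19, 7557459 to 7588545), stood at 177, 425, 296 and 251 CPM against 131, 0, 45, 37.2 and 31.4. For all 3 genes the lowest control plate was above the highest Irf1-deleted plate. The narrowest gap was that of Sharpin, between 103 and 125 CPM. Qpct, the enzyme that forms N-terminal pyroglutamate, was near 0 in the Irf1-deleted plates (0.233, 0, 0, 15.7 and 40.4 CPM) and at 225, 119, 226 and 110.2 CPM in control plates. The other lower genes by the rule were Uggt1, Mdp1, Creg1, Polr1d, Tfg and Rer1, with log2 differences from -2.13 (Uggt1, a folding sensor of the endoplasmic reticulum) to -0.68 (Rer1, a retrieval receptor between Golgi and endoplasmic reticulum).

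The higher genes included 3 interferon-induced membrane proteins. Ifitm3 (chromosome 7, 141009590 to 141010744), which restricts virus entry, had 994, 644, 629 and 884 CPM in control plates and 1996, 1463, 1102, 2276 and 1768 in Irf1-deleted plates. Its neighbour Ifitm2 had 236, 378, 295 and 133 CPM against 718, 592, 583, 1035 and 693. Bst2 (tetherin), which holds budding viruses at the cell surface, had 300.2, 183, 181 and 298 CPM against 637, 435, 387, 663 and 491. All 5 Irf1-deleted plates were above all 4 control plates for each of these genes. The log2 differences were 1.13 ± 0.30 for Ifitm3, 1.47 ± 0.32 for Ifitm2 and 1.12 ± 0.32 for Bst2 (edgeR adjusted p = 0.481 each). Ifitm2 and Ifitm3 are close paralogs, and how reads that fit both were counted is not given in the sources used here.

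Genes outside the interferon lists were also higher. Rab8a, a GTPase of vesicle traffic, had 562, 461, 379 and 518 CPM in control plates and 705, 860.3, 886, 787 and 663 in Irf1-deleted plates (log2 difference 0.70 ± 0.17). Tcn2, a carrier of vitamin B12, had 49.2, 78.0, 80.6 and 45.8 CPM against 221, 399, 250.4, 214 and 277 (2.10 ± 0.44). Neither gene's plates overlapped between the genotypes. Gcnt2, a glycosyltransferase, averaged 83.0 and 289 CPM, Acadm, an enzyme of fatty acid oxidation, 75.5 and 253 CPM, Gngt2, a G protein gamma subunit, 46.0 and 243 CPM, and Eva1b 37.4 and 209.8 CPM. Uck1, a uridine-cytidine kinase, averaged 5.08 and 68.8 CPM. Spic, a transcription factor known from macrophages, averaged 0.0584 and 81.7 CPM. Tpm2, a tropomyosin, had UMIs in 0 of 98 control cells and stood at 28.2 to 116 CPM in Irf1-deleted plates. In 98 cells, 3 cells would make a share of 3.06%. Such shares pool the cells of all plates and are no limit that takes the plate as replicate.

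Genes induced by type I interferon were mostly higher in Irf1-deleted plates. Of 50 listed genes 49 were in the table, and 44 of these were found in at least 10% of the cells of either genotype. Of these 44, 38 had a higher and 6 a lower mean difference, with a median log2 difference of 0.89. Of all 5610 genes found that widely, 51.2% were higher and the median was 0.02. Plates did not overlap for 8 of the 44, all higher (Ifitm1, Ifitm2, Ifitm3, Ifi27l2a, Ifi213, Oas3, Isg20 and Rtp4), against 1.59% of the 5610 genes higher and 1.3% lower. No member passed the edgeR test, and DESeq2 called 2. Over the alternatives in processing, 36 to 41 members were higher, and the count was 41 without control plate 1 and Irf1-deleted plate 2. The median was 0.55 under a looser cell rule.

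Summed over the 49 members, control plates had 9991, 8842, 6424 and 11346 CPM. Irf1-deleted plates had 17584, 11907, 11618, 20391 and 17961 CPM. The 2 lowest Irf1-deleted plates were just above the highest control plate, so the groups were apart by a narrow margin. Irf7, the interferon regulatory factor that sustains type I interferon production, averaged 650.2 ± 286 and 1368 ± 565 CPM and overlapped. Usp18, an inhibitor of type I interferon receptor signalling, averaged 296 ± 145 and 671 ± 229 CPM, and Isg15, a ubiquitin-like protein, 231 ± 100.4 and 549 ± 266 CPM, also with overlap. Isg20, an exonuclease, had 207, 180.4, 0.502 and 217 CPM in control plates against 344, 529, 394, 753 and 459.7, with every Irf1-deleted plate higher. The lower members included Samd9l, an antiviral factor (226 and 158 CPM), and Herc6, a ligase for Isg15 (118 and 77.7 CPM). The interferon genes themselves were near 0: summed over 9 of them, plates held 0 to 12.3 CPM in control and 0 to 7.93 CPM in Irf1-deleted samples.

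**Figure D2:**
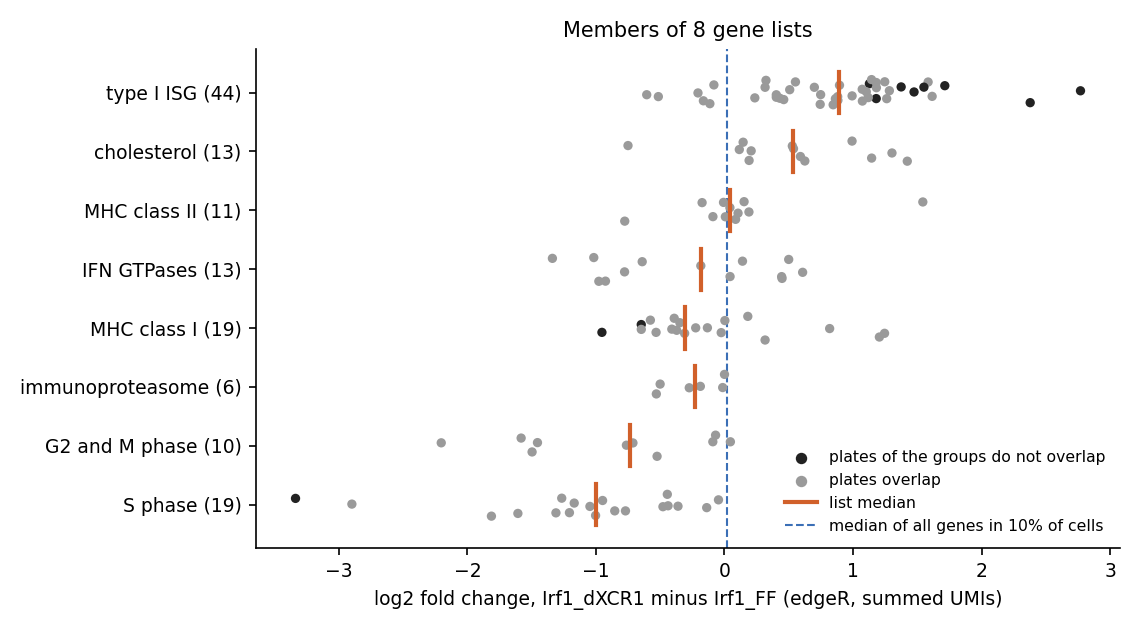
Log2 difference (Irf1-deleted minus control) of list members found in at least 10% of the cells, for 8 gene lists. Each point is a gene, black points are genes whose plates do not overlap between genotypes, the orange bar is the list's median and the dashed line the median of all such genes (0.02). Type I interferon genes lie mostly above 0, with a median of 0.89, and S phase genes lie below it, with a median of -1.003.

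Promoters of some named genes are shown because GAAA repeats are found in the promoters of many interferon-induced genes, IRF1 targets among them. A word of GAAA, any 2 bases and GAAA again was searched on both strands in RefSeq promoter windows of 300 bases (250 before to 50 after the start, GRCm38.p6), and 3.44% of 32851 windows held it. Capitals mark the word, or its reverse complement where it lay on the other strand. The first 3 genes were higher in Irf1-deleted cells, and Gbp2, H2-T23 and Psme1 were lower in mature Irf1-deleted cells, as described further on.
Ifitm3 (chr7:141010715-141010743, minus strand): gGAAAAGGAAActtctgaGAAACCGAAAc
Ifitm2 (chr7:140955962-140956052, minus strand): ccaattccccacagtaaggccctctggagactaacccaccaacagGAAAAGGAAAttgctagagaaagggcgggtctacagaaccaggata
Bst2 (chr8:71537542-71537647, minus strand): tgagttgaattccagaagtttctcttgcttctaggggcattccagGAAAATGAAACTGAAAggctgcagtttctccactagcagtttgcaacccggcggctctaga
Gbp2 (chr3:142620559-142620658, plus strand): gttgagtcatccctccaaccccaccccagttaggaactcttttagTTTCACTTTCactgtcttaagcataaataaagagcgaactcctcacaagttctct
H2-T23 (chr17:36032771-36032870, minus strand): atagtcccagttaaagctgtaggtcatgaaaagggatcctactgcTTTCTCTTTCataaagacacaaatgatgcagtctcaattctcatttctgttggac
Psme1 (chr14:55578493-55578522, plus strand): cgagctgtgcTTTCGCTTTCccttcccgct

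In Bst2 a pair of words overlap, and in Ifitm3 a pair lies just after the start. The printed genes were picked after their values were seen and among genes whose window held the word. That the word stands in both higher and lower genes here was therefore set by the choice. Of 103 named genes with a window 12 held the word, against 3.99% of all genes with a window. Many named genes come from the interferon lists. Over all genes with the word and found in at least 10% of the cells, 103 were higher and 101 lower, with a median log2 difference of 0.01. Of those in the type I interferon list 18 of 21 were higher (median 0.88), and of those outside it 85 of 183 (median -0.05). Of genes with a window but no word, 51.0% were higher. By list, the word stood in 10 of 11 interferon-induced GTPase genes with a window, 24 of 41 type I interferon genes, 4 of 15 MHC class I genes, 1 of 6 immunoproteasome genes and 0 of 15 cytokine genes. The windows of Tap1, Il12b, AW112010 and Irf7 did not hold these letters. A match describes the sequence and is not evidence of binding.

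Genes of the MHC class I pathway were lower more often than higher. Of 19 members, all found in at least 10% of the cells, 13 were lower and 6 higher, with a median log2 difference of -0.31 against 0.02 for all such genes. Tap1 (above) and Tapbpl, a peptide editor for MHC class I, were lower without overlap, against 1.3% of all such genes. Tapbpl had 223, 222, 228 and 296 CPM in control plates and 128, 188, 64.6, 93.0 and 151 in Irf1-deleted plates. Its lowest control plate was above its highest Irf1-deleted plate, which was plate 2. The class I heavy chain H2-K1 overlapped at 1717 ± 235 and 1349.8 ± 327 CPM, and B2m, the common light chain, at 3788 ± 1153 and 3722 ± 729 CPM. Over the alternatives 12 to 15 members were lower. The median moved to -0.19 without control plate 1, to -0.20 without Irf1-deleted plate 2, to -0.17 without both and to -0.15 without Irf1-deleted plate 3.

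Of 6 immunoproteasome genes 5 were lower, with a median of -0.23. The median was -0.11 with 4 of 6 lower without control plate 4, and -0.13 without Irf1-deleted plate 2. Psmb10, a catalytic subunit, averaged 685 ± 98.2 and 474 ± 135 CPM, Psme1, a subunit of the proteasome activator, 1025 ± 263 and 724 ± 133 CPM, and Psme2, its partner, 2006 ± 500.4 and 2006 ± 116 CPM. All 3 overlapped between genotypes. Interferon-induced GTPases did not share a direction, with 6 of 13 higher and 7 lower (median -0.18). Their median turned to 0.39, with 5 lower, without control plate 2 and to 0.03 with the mature share as a covariate, and it was -0.42, -0.36 and -0.37 without control plates 1, 3 and 4. Gbp2, which acts on vacuoles of intracellular microbes, averaged 178 ± 95.9 and 93.8 ± 50.1 CPM, while Irgm1 averaged 347 ± 84.8 and 473 ± 89.1 CPM and Tgtp2 244 ± 27.0 and 333 ± 136 CPM. MHC class II genes were split as well, with 7 of 11 higher and a median of 0.04.

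Most genes of DNA replication and mitosis were lower in Irf1-deleted plates. All 19 S phase genes found in at least 10% of the cells were lower (median log2 difference -1.003), as were 9 of 10 G2 and mitosis genes (median -0.74), against 48.8% of all such genes. Summed over the list, S phase genes had 2933, 1665, 2873 and 3952 CPM in control plates and 1786, 527, 917, 2460.3 and 2315 CPM in Irf1-deleted plates, which overlapped. The G2 and mitosis list summed to 1709.9, 2111, 2683 and 2439.9 CPM against 806, 581, 1364, 1274 and 1832, so that Irf1-deleted plate 5 was above control plate 1. Cdk1, the kinase that starts mitosis, had 41.9, 139, 215 and 113 CPM in control plates and 12.4, 0, 0, 88.7 and 36.6 in Irf1-deleted plates. Mcm6, a subunit of the replicative helicase, averaged 188 ± 73.9 and 53.4 ± 61.4 CPM, and no gene of either list passed the edgeR test. Over the alternatives the S phase median lay between -2.07 (cells weighted equally) and -0.57, and leaving out control plate 1 and Irf1-deleted plate 2 gave the latter, with 17 of 19 lower. The pattern stood in cDC1-arm cells, where 22 of 23 S phase genes and 17 of 19 G2 and mitosis genes were lower, against 50.1% of all 5879 genes found in at least 10% of those cells. In mature cells only 6 S phase genes were found that widely, 4 of them higher.

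**Figure D3:**
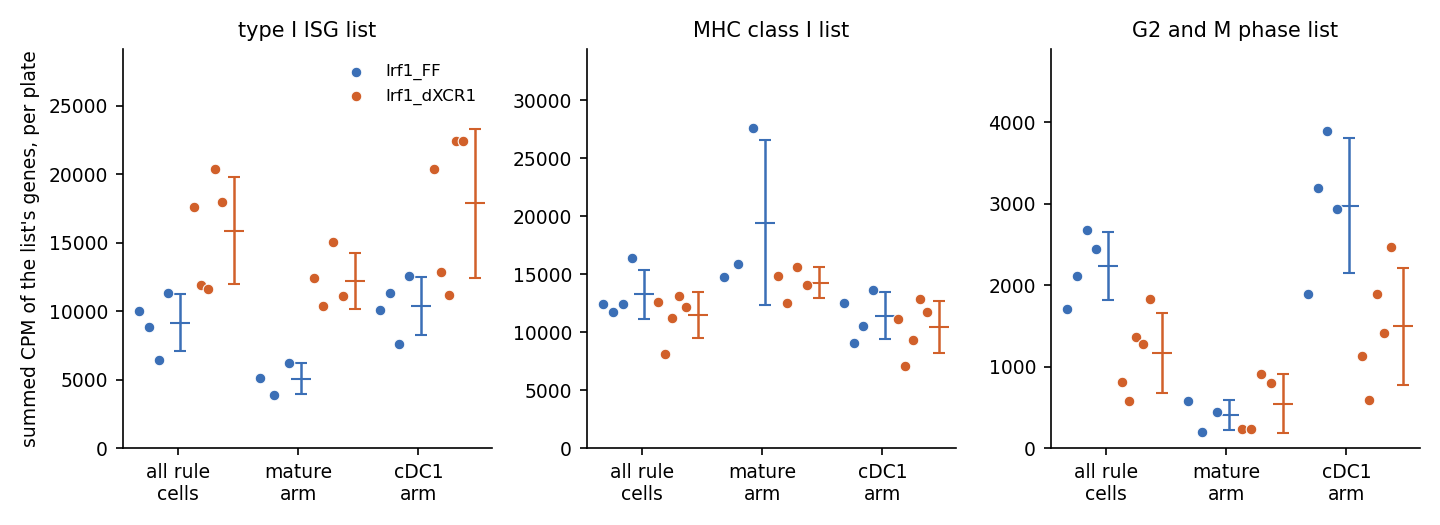
Summed CPM per plate of the type I interferon, MHC class I and G2 and mitosis lists over all selected cells, mature cells and cDC1-arm cells. Points are plates with the mean ± SD of each genotype. The type I interferon sum in mature cells was 3917 to 6223 CPM in control and 10379.5 to 15033 CPM in Irf1-deleted plates.

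Other lists held single genes that stood apart. Among NF-κB genes 12 of 28 were higher and 16 lower, and the kinase subunits differed in direction. Chuk, which encodes IKKα, had 110.0, 112, 115 and 41.2 CPM in control plates and 27.5, 1.09, 0.271, 15.2 and 8.62 in Irf1-deleted plates. Ikbkb, which encodes IKKβ, averaged 209.7 ± 83.4 and 396 ± 102 CPM with overlap. Cxcr3, a chemokine receptor of the cDC1 identity list, had 373, 183, 192 and 217 CPM against 12.1, 0, 123, 147 and 93.2. Irf5 averaged 683 ± 62.4 and 456 ± 182 CPM. Chuk, Cxcr3 and Irf5 were lower in every Irf1-deleted plate, but none passed the edgeR test (adjusted p = 0.481, 0.508 and 0.508). Each was the only widely found member of its list without overlap, against 1.3% lower without overlap among all such genes. Of 20 widely found cDC1 identity genes 9 were higher and 11 lower. Of 6 widely found genes of the interferon regulatory factor list 1 was higher and 5 lower. Of 13 genes of cholesterol synthesis, uptake and efflux 12 were higher, with a median of 0.54.

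In mature cells alone Ccl5 and Il12b were lower in every Irf1-deleted plate, and most type I interferon genes were higher. The test used 3 control plates (32 mature cells on plates 2 to 4) and 4 Irf1-deleted plates (42 cells). edgeR called 0 of 7311 genes (0%), with a smallest adjusted p of 0.165 and 409 genes (5.59%) at an unadjusted p under 0.05, and DESeq2 called 107. Among 4409 genes found in at least 10% of these cells, 226 (5.13%) were higher and 170 (3.86%) lower without overlap of plates. By direction alone 56% were higher and 44% lower, and the median log2 difference was 0.16.

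Ccl5, a chemokine that attracts T cells, had 2074, 4169 and 2613 CPM in mature control cells and 1137, 708, 633 and 350.4 in mature Irf1-deleted cells. Its highest Irf1-deleted plate was below its lowest control plate, and the means were 2952 ± 1088 (n = 3) and 707 ± 325 CPM (n = 4; log2 difference -2.06 ± 0.34, edgeR adjusted p = 0.165). Il12b, which encodes the subunit shared by interleukins 12 and 23, had 2488, 3238 and 5769.7 CPM against 1243, 2070.2, 1444 and 1081. The groups did not overlap (log2 difference -1.39 ± 0.37, edgeR adjusted p = 0.57). Over all selected cells both genes overlapped, and Ccl5 had 112, 1018, 1403 and 526 CPM in control plates and 425, 0.362, 279, 128 and 119.6 in Irf1-deleted plates. The whole chemokine list summed to 4036 to 5308 CPM in mature control and 1862 to 2895 CPM in mature Irf1-deleted cells, though 5 of its 8 widely found members were higher and 3 lower. The means of this sum were 4564 and 2467 CPM, so the lower sum followed Ccl5. The median log2 difference of the 8 members was 0.83.

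AW112010, an interferon-induced transcript, had 1923, 2312 and 3046 CPM in mature control cells and 746, 1347, 659 and 1084 in mature Irf1-deleted cells (log2 difference -1.34 ± 0.27, edgeR adjusted p = 0.216). Glipr2, a membrane-associated protein of the Golgi, had 1945, 1779 and 3885 CPM against 773, 567, 979.9 and 848 (-1.68 ± 0.32, adjusted p = 0.165). Lactb, a mitochondrial serine protease-like protein, had 424, 1119 and 723 CPM against 218, 107, 98.9 and 185 (-2.31 ± 0.49, adjusted p = 0.285). All 3 were lower in each of the 4 Irf1-deleted plates than in any control plate. With at least 10 mature cells required per plate (2 control and 3 Irf1-deleted plates), edgeR called 17 genes. Glipr2, AW112010 and Il12b were among them (adjusted p = 0.00986, 0.0356 and 0.00901), as was Il1r2 (0.00901), while Ccl5 (0.0522) and Flrt3 (0.405) were not.

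Most antigen processing genes were lower in mature cells. H2-T23, a non-classical MHC class I molecule, had 927, 930.4 and 1496 CPM against 565, 560.2, 405 and 461 (log2 difference -1.17 ± 0.31, edgeR adjusted p = 0.57), and its plates did not overlap. Of 18 MHC class I genes 12 were lower (median -0.29 against 0.16 for all widely found genes). Plates did not overlap for 5 lower genes and 1 higher gene, against 3.86% lower and 5.13% higher among all widely found genes. Tapbp, the tapasin that bridges MHC class I and the peptide pump, averaged 919.9 ± 103 and 407 ± 163 CPM. H2-K1 had 2644, 2659.8 and 3746 CPM against 2108, 2090.2, 2251 and 2161. The other lower genes were H2-T23, H2-Q7 (745 ± 174 and 458 ± 163 CPM) and Tapbpl (439 ± 176 and 107 ± 72.4 CPM), and the higher gene was Nlrc5, the activator of MHC class I transcription (87.0 ± 51.4 and 213 ± 56.4 CPM). Tap1 overlapped in mature cells at 659.7 ± 129 and 596 ± 142 CPM. All 6 immunoproteasome genes were lower (median -0.43), with Psme1 at 1220.0, 1649 and 2001 CPM against 748, 537, 1077 and 806. Gbp2 averaged 457 ± 226 and 101 ± 81.3 CPM, the closest plates being at 197 and 195 CPM.

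Survival and maturation genes were mixed. Bcl2l14, a BCL2-family gene, averaged 1145 ± 326 and 152 ± 137 CPM without overlap, and the list of 14 survival genes to which it belongs summed to 3029 to 3173 CPM in control and 1434 to 2067 CPM in Irf1-deleted plates. Of its 11 widely found members 7 were lower and 4 higher (median log2 difference -0.30). The means of this sum were 3098 and 1803 CPM, so much of the lower sum lay in Bcl2l14. The costimulatory genes Cd83 (3227 ± 188 and 3448 ± 588 CPM) and Cd86 (989.9 ± 607 and 1489 ± 286 CPM) overlapped. Of 38 widely found maturation genes outside the rule 18 were higher and 20 lower (median -0.09 against 0.16 for all such genes). Plates did not overlap for 2 higher and 5 lower members, against 5.13% higher and 3.86% lower among all widely found genes.

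Type I interferon genes were higher in mature cells too. Of 41 widely found members 40 were higher (median 1.63), against 56% and 0.16 over all such genes. Without overlap of plates 9 were higher and 0 lower, against 5.13% higher and 3.86% lower over all such genes. Ifitm3 had 317, 232 and 393 CPM in mature control cells and 840.1, 1072, 1639 and 1090.0 in mature Irf1-deleted cells (log2 difference 1.89 ± 0.34, edgeR adjusted p = 0.165). Irf7 had 412, 248 and 308 CPM against 1443, 475, 1554 and 1002, and Usp18 79.0, 189.7 and 391 CPM against 556, 523, 567 and 522. Both were above the controls in every Irf1-deleted plate, Irf7 least on plate 3.

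S100a6, a calcium-binding protein, had 75.3, 159 and 79.5 CPM in mature control cells and 693, 628, 649 and 660.4 in mature Irf1-deleted cells (log2 difference 2.65 ± 0.51, edgeR adjusted p = 0.165). The Irf1-deleted plates lay close together and far above the controls. Il1r2, the decoy receptor of interleukin 1, was found in 0 of 34 mature control cells, pooled over plates, where 3 cells would make 8.82%. In mature Irf1-deleted cells it had 154, 379, 124 and 703 CPM and was found in 8.33%, 28.6%, 18.2% and 25.0% of the cells. Flrt3, an adhesion protein, averaged 374 ± 18.2 and 1086 ± 224 CPM, F11r, a junctional adhesion molecule, 1.85 ± 2.59 and 258 ± 185 CPM, and Spic 0.177 ± 0.306 and 357 ± 305 CPM. None overlapped, and none passed with the minimum of 5 cells per plate. Macrophage and monocyte markers summed to 389, 14.2 and 579 CPM in mature control cells and to 217, 1047, 1205 and 3209 CPM in mature Irf1-deleted cells. Of their 5 widely found members 4 were higher, against 56% of all such genes. Fibroblast and endothelial markers summed to 3.71, 7.47 and 12.05 CPM against 174, 20.7, 275 and 219 CPM, which did not overlap, and all 4 tested members were higher. Of 14 widely found stress and immediate-early genes 10 were higher (median 0.91), 3 of them without overlap, against 5.13% of all widely found genes. These 3 were Dnajb1, a heat-shock cochaperone (61.6 and 352 CPM), Dusp1, a phosphatase of MAP kinases (2.66 and 166 CPM), and Atf3, a stress-induced transcription factor (0.650 and 101 CPM). The part of other cells and of stress in the higher genes of mature cells was not tested.

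**Figure D4:**
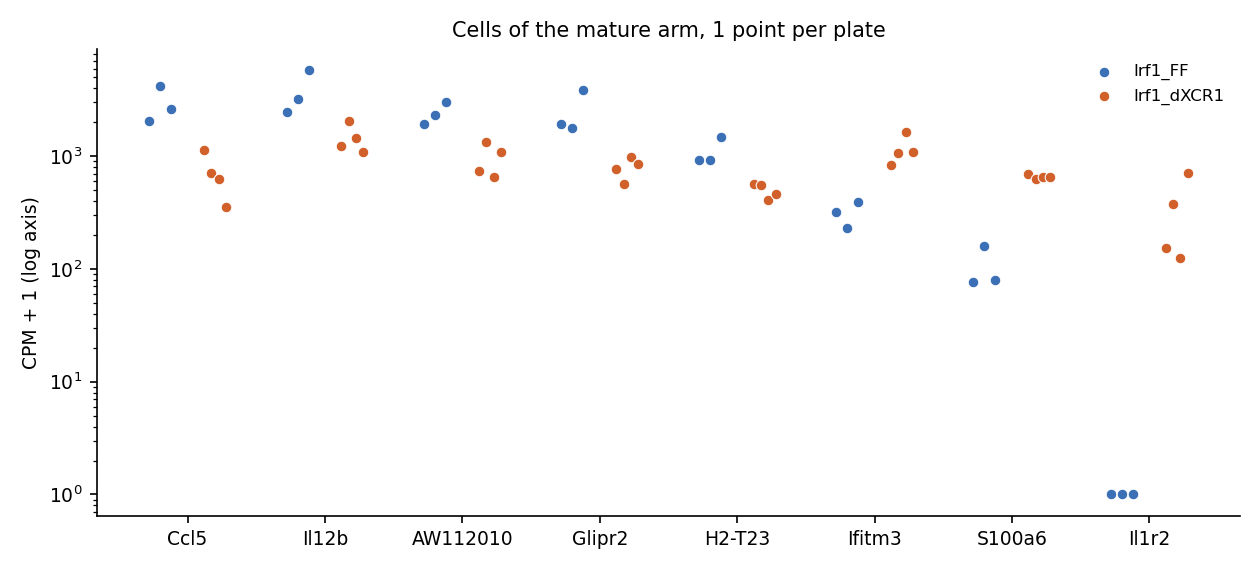
Level per plate in mature cells of Ccl5, Il12b, AW112010, Glipr2, H2-T23, Ifitm3, S100a6 and Il1r2, on a log axis of CPM + 1. Points are 3 control and 4 Irf1-deleted plates. The first 5 genes are lower and the last 3 higher in every Irf1-deleted plate, Ccl5 at 350.4 to 1137 CPM against 2074 to 4169 CPM.

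In cDC1-arm cells, too, most type I interferon genes were higher. edgeR called 0 of 13045 genes (0%), with a smallest adjusted p of 0.467 and 1155 genes (8.85%) at an unadjusted p under 0.05, and DESeq2 called 181. Among 5879 genes found in at least 10% of these cells 71 (1.21%) were higher and 78 (1.33%) lower without overlap. Of 43 type I interferon genes 36 were higher (median 0.86), 6 of them without overlap, against 49.9% of the 5879 genes higher. Ifitm2 had 253, 333, 317 and 148 CPM in control and 890.4, 657, 601, 1087 and 810.2 in Irf1-deleted plates (log2 difference 1.62 ± 0.32). Xaf1, an interferon-induced antagonist of an apoptosis inhibitor, had 261, 248, 125 and 301 CPM against 635, 366, 423, 676 and 735. Both genes were higher in all 5 Irf1-deleted plates, with an edgeR adjusted p of 0.467.

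Other genes also stood apart in cDC1-arm cells. Gpr171, a G protein-coupled receptor, averaged 382 ± 171 and 783 ± 112 CPM, Pacsin2, a membrane-curving protein of endocytosis, 80.2 ± 35.0 and 263 ± 90.0 CPM, and Gcnt2 72.9 ± 65.4 and 285 ± 79.9 CPM. Fgl2 had 1149.9, 1148, 1310.1 and 1505 CPM in control plates and 669, 639, 767, 690.4 and 769 in Irf1-deleted plates (log2 difference -0.85 ± 0.21, edgeR adjusted p = 0.467). Its level in mature cells was far lower in both genotypes (197 ± 129.9 and 22.2 ± 31.8 CPM). Ighm, the immunoglobulin mu chain, averaged 458 ± 151 and 127 ± 94.3 CPM, St8sia4, a polysialyltransferase, 256 ± 47.0 and 87.0 ± 33.8 CPM, and Sdccag3, an endosomal gene also called Entr1, 64.2 ± 71.1 and 0.472 ± 0.567 CPM. Mras, a RAS-family GTPase, had 52.2, 78.6, 55.8 and 53.8 CPM in control plates. It was found in 0 of 91 cDC1-arm cells of the Irf1-deleted plates, pooled over plates, where 3 cells would make 3.30%. Serpina3g, a serpin from the list of further interferon-gamma-induced genes and chosen after its values were seen, averaged 327 ± 99.0 and 115 ± 68.6 CPM without overlap. Most of that list went the other way: of 20 widely found members 12 were higher and 8 lower (median 0.49). Plates did not overlap for 2 higher members and 1 lower member, against 1.21% higher and 1.33% lower of all widely found genes. Of 19 MHC class I genes 13 were lower, with a median of -0.09.

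The share of cells with a UMI of a gene weighs every cell alike. A limma test on these shares called 0 of 4909 genes (0%), with a smallest adjusted p of 0.0712, while 159 genes (3.24%) were higher and 47 (0.957%) lower at an unadjusted p under 0.05. Over all 4909 genes, 60.4% had a higher share in Irf1-deleted plates. Pla2g16 had the smallest p: 30.4%, 45%, 33.3% and 50.0% of control cells and 20.7%, 0%, 11.1%, 4.76% and 5.56% of Irf1-deleted cells held a UMI (adjusted p = 0.0712). On the scale of the empirical logit 4 genes passed, namely Pla2g16 (adjusted p = 0.00775), Dab2 and Il1r2 (0.0158 each) and Plet1 (0.0209).

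Il1r2 was found in 4.35%, 0%, 0% and 8.82% of control cells and in 20.7%, 25.0%, 22.2%, 42.9% and 30.6% of Irf1-deleted cells (limma adjusted p = 0.0823). Dab2, an endocytic adaptor, was found in 0%, 0%, 0% and 11.8% against 17.2%, 41.7%, 38.9%, 23.8% and 30.6% (0.0823). Plet1, a surface protein, was found in 21.7%, 0%, 0% and 14.7% against 34.5%, 41.7%, 44.4%, 38.1% and 36.1% (0.102). Every Irf1-deleted plate had a higher share than every control plate for each of the 3 genes. Wfdc17 (19.6% and 43.8% on average), Tcn2 (9.20% and 32.6%), Gcnt2 (24.7% and 51.4%), Eva1b (9.19% and 30.5%) and the drug transporter Abcb1a (2.17% and 17.1%) were also higher without overlap. All genes named here for their shares, higher or lower, were picked for plates that do not overlap, so that trait is no separate result. How many of all 4909 genes did not overlap in share was not counted. Lower shares without overlap were those of Qpct (24% and 2.83%), Bcl2l14 (36.2% and 10.9%), the inhibitory lectin Clec12a (52.7% and 22.3%), the chemokine receptor Ccr2 (30.8% and 11%), Ecd (24.7% and 8.81%) and Nudt16 (17.8% and 5.19%). Gbp2 was found in 21.7%, 30.0%, 14.3% and 35.3% of control cells and in 13.8%, 8.33%, 11.1%, 7.14% and 13.9% of Irf1-deleted cells, so its share was lower in every Irf1-deleted plate while its CPM overlapped. Of 42 type I interferon genes 41 had a higher share.

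A test of whether the genotype difference itself differed between mature and cDC1-arm cells used the 7 plates with at least 5 cells of each. edgeR called 3 of 9043 genes (0.0332%). Tspo, a mitochondrial outer membrane protein, averaged 3939 and 2452 CPM in mature control and Irf1-deleted cells but 1630.4 and 2207 CPM in cDC1-arm cells (interaction -1.29 ± 0.20 on the log2 scale, edgeR adjusted p = 0.0239). BC028528 averaged 0.249 and 67.9 CPM in mature cells and 933 and 957 CPM in cDC1-arm cells (7.6 ± 1.06, adjusted p = 0.0123). Flrt3 averaged 374 and 1086 CPM in mature cells (edgeR adjusted p = 0.0123 for the interaction). In cDC1-arm cells it was found in 0 of 64 control cells, where 3 cells would make 4.69%, and averaged 49.5 CPM in Irf1-deleted cells. None of the 3 passed with limma voom and plate as a random effect (adjusted p = 1.00 for Tspo, 0.397 for BC028528 and 0.0606 for Flrt3). In that fit the Tspo interaction was -0.00666 on the log2 scale, while BC028528 stood at 6.80 and Flrt3 at -6.74. For Ccl5, Il12b and the other genes named within a state, a difference between the states is not shown.

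The genes of the cell rule are given as description. Xcr1, the chemokine receptor that marks cDC1, averaged 548 ± 273 CPM in control and 190.4 ± 88.0 CPM in Irf1-deleted plates, and was found in 54.1% and 35.7% of the cells. Clec9a, the receptor for exposed actin of dead cells, averaged 168 ± 83.5 and 83.7 ± 23.9 CPM, and Irf8, the factor that specifies cDC1, 1503 ± 196 and 1182 ± 242 CPM. Of the other cDC1 genes, Cadm1, Naaa, Ppt1, Tlr3 and Wdfy4 were lower on average and Itgae higher (216 ± 106 and 261 ± 44.8 CPM). Of the mature genes, Ccr7 averaged 938 ± 437 and 1122 ± 358 CPM and Samsn1 363 ± 187 and 651 ± 197 CPM. Fscn1 was also higher on average. Anxa3, Cacnb3, Ccl22 (855 ± 478 and 703 ± 199 CPM), Cd40, Relb and Socs2 were lower on average. Il4i1 was at 0 in all control plates and in 4 of 5 Irf1-deleted plates. Over all selected cells and in cDC1-arm cells, plates overlapped between genotypes for every rule gene. In mature cells Irf8 (1643 and 843 CPM) and Anxa3 (1143 and 704 CPM) were lower without overlap. Relb (303 and 479 CPM) and Samsn1 (1355 and 1824 CPM) were higher there without overlap. Among all genes widely found in mature cells, 3.86% were lower and 5.13% higher without overlap.

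The index sort recorded protein stainings of single cells, given here as plate medians of arcsinh values over the selected cells. XCR1 staining had medians of 9.31, 9.17, 9.74 and 9.20 in control plates and 7.67, 7.96, 8.55, 7.71 and 8.23 in Irf1-deleted plates. CD11c staining had 9.62, 9.68, 8.99 and 8.99 against 9.98, 10.0, 9.84, 10.2 and 10.1. The plates did not overlap for either protein. XCR1 was lower by 1.33 (a 3.78-fold lower signal) and CD11c higher by 0.704 (2.02-fold). For both the exact two-sided permutation p was 0.0159, the smallest that 4 against 5 plates can give, and 0.0714 after adjustment over the 9 recorded values. With plate means in place of medians, XCR1, CD11c and CD45 each had an exact permutation p of 0.0159 and an adjusted p of 0.0476, under the threshold.

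The XCR1 difference was -1.57 in mature cells (exact permutation p = 0.0357, the smallest that 3 against 5 plates can give, adjusted p = 0.321), whose rule needs no Xcr1, and -0.861 over all stained cells regardless of the rule (p = 0.0794). Xcr1 is a rule gene, and the sort that chose the cells recorded XCR1, so the part of the gate in this difference was not tested. The genotype label dXCR1 also names XCR1. For XCR1 staining and Xcr1 UMIs, an effect of that allele and one of the Irf1 deletion cannot be told apart. CD45 was higher by 0.235 (exact permutation p = 0.0317, adjusted 0.0952), and MHCII by 0.213 with overlap (p = 0.619). The Ikbkb_dXCR1 plates with stainings (mice of 8, 8 and 6 weeks) had XCR1 medians of 8.67, 9.38 and 8.09, which span values of both Irf1 groups.

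**Figure D5:**
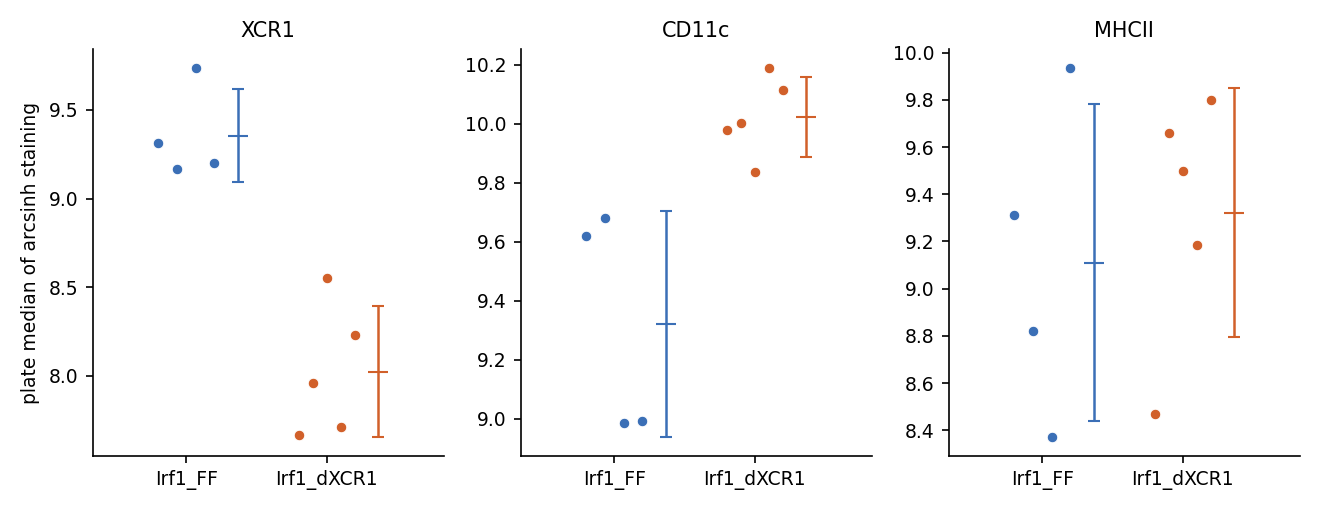
Plate medians of XCR1, CD11c and MHCII staining (arcsinh units) over the selected cells, with the mean ± SD of each genotype. XCR1 medians lie at 9.17 to 9.74 in control and 7.67 to 8.55 in Irf1-deleted plates, and MHCII medians overlap.

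Markers of other cell types are given because the sort can carry other cells. Summed over each list in all selected cells, T cell markers had 0 to 422 CPM in control plates (422 on plate 1) and 0.233 to 83.2 CPM in Irf1-deleted plates, macrophage markers 451 to 1379.7 and 466 to 1742 CPM, fibroblast and endothelial markers 3.52 to 115 and 8.41 to 408 CPM, and neutrophil markers 0 to 12.6 and 0 to 1.04 CPM. Pdgfra, Fbln1, Mlana, Pmel, S100b, Ncr1, Klrb1c, Prf1, Eomes and Ebf1 were at 0 in all 9 plates. The NK list had 459 to 596 and 593 to 874.7 CPM, nearly all of it Klrk1. Markers of cDC2 and plasmacytoid cells had 258 to 607 and 566 to 972 CPM, and Bst2, which interferon also induces, gave 181 to 300.2 and 387 to 663 CPM of these. B cell markers, mostly Ighm, had 174 to 441 and 51.5 to 209 CPM. The part of such cells in the higher interferon genes and in Spic, a macrophage marker, was not tested.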

How the data were processed

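The authors deposited UMI counts of 21205 genes per cell (whole numbers, per the file headers) from single cells sorted into 96-well plates with spike-in RNA. The submitters' processing notes name bcl2fastq, STAR 2.5.3a, HTSeq 0.9.1 and GRCm38. How the authors filtered cells is not given in the sources used here, and 0 cells were marked as filtered out. Mitochondrial and spike-in UMIs were deposited as a fraction of each cell's UMIs, and index-sort stainings as an arcsinh score made by the authors. Cells were sorted singly, and no doublet caller was run. A count cannot pass the number of different 5-base UMIs, and the median nonzero count was 64.

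Counts were summed over the selected cells of each plate, filtered with filterByExpr, scaled by TMM and tested with edgeR 4.0.16 (quasi-likelihood, R 4.3.3), with the 4 genotypes of 14 plates fitted together. Detection shares (genes in at least 10% of cells) were tested with limma 3.58.1 on the arcsine square root scale, and single values with exact permutation tests. P values are two-sided, adjusted by Benjamini-Hochberg over all genes tested, with a threshold of 0.05. Mature and cDC1-arm cells were fitted on plates with at least 5 such cells. Alternatives were DESeq2 1.42.0, other scaling, filters, cell rules, covariates and plates left out. Added after seeing the data were leaving out control plate 1 with Irf1-deleted plate 2, widely found genes only, and stainings over other cells. The fits were tested on simulated data.

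Genes were named by rule: Irf1, then the smallest p values among genes whose plates do not overlap, with at least 10 CPM and found in at least 10% of cells (up to 12 higher and 12 lower, 8 and 8 for detection shares, 6 and 6 per state), and up to 4 members of each list. Other list members given were chosen after their values were seen. The members and lists were chosen with earlier results of these data known. Positions come from RefSeq's GRCm38 table, to which 21075 symbols matched.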

Additional observations from a re-analysis of the deposited data

Results flagged for a closer look

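In 8 of 96 groups of plates a single plate stood apart from the others by Dixon's test. The test's chance rate of about 1 in 20 holds for normally spread values. It does not hold for CPM with plates at 0, as for Abcb1a, Dab2 and Spic below, so this count shows no excess. Irf1-deleted plate 1 had a CD11b staining median of -3.47 (the others 5.79 to 6.32) and a CD45 median of 10.3 (the others 10.5). Control plate 1 had 40.0 CPM of Abcb1a and control plate 4 had 70.7 CPM of Dab2, each with the other control plates at 0. Control plate 3 had 186 CPM of Nudt16 (41.6 to 60.1 in the others), control plate 4 had 588 CPM of Rer1 (520.0 to 530.0), and control plate 2 had 0.233 CPM of Spic (0 in the others). Irf1-deleted plate 2, the plate with the fewest cells, had 159.5 CPM of Uck1 (34.0 to 56.7 in the others).

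By edgeR on 7 plates the genotype difference differed between mature and cDC1-arm cells for BC028528 (interaction 7.6 on the log2 scale), Flrt3 (-8.42, a fitted value that rests on 0 UMIs in the control cDC1-arm cells) and Tspo (-1.29). With limma voom and plate as a random effect none of the 3 passed (adjusted p = 0.397, 0.0606 and 1.00), and the Tspo value was -0.00666.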

How the results depend on the processing

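No gene passed over all selected cells, in either state or in detection shares with the main settings. DESeq2 called 194 genes over all selected cells, 107 in mature and 181 in cDC1-arm cells. Weighting cells equally gave 2 genes, the empirical logit 4, and a minimum of 10 cells 17 in mature cells and 1 in the state interaction, where only 1 control plate was left against 3 and was assumed to vary like them, so that count says nothing of stability. Leaving out each plate in turn gave 0 to 1 genes over all selected cells (1 without control plate 4), 0 to 2 in detection shares (2 without control plate 1), 0 to 1 in mature cells (1 without Irf1-deleted plate 1 or 3) and 0 to 1 in cDC1-arm cells (1 without control plate 4). The causes of these moves were not tested. In 573, 255, 132 and 154 pairs of a named gene and an alternative (all selected cells, detection shares, mature and cDC1-arm cells) the direction was the main one each time. Apart from Irf1, these genes were chosen because their plates did not overlap between genotypes. The agreement was therefore largely set by that choice and says little of stability. The difference in mature share, -0.837 percentage points, lay between -9.76 and 5.68 with single plates left out (1.63 without control plate 3, 1.27 without Irf1-deleted plate 4). CD11c in mature cells alone was higher by 0.715 (exact permutation p = 0.0714). CD45 differed by 0.228 over all stained cells, 0.270 in cDC1-arm and 0.0698 in mature cells, and by 0.190 to 0.308 with single plates left out. XCR1 over all stained cells differed by -0.861. Stainings that overlapped reversed in places: CD11b to 0.105 (all stained) and 0.266 (mature), CD64 to -4.99 (mature) and, with single plates left out, -0.0659 (without control plate 4) to 3.31, LIN to -0.205 (cDC1-arm) and MHCII to -0.263 (cDC1-arm) and, with single plates left out, -0.0336 (without control plate 3) to 0.488. The 4 against 5 plates and as few as 2 mature cells on a plate limit what these data can show. No paired analysis was possible because the replicate numbers only follow the order of deposit.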
